A study of Mus musculus with 9 samples.

Results

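Spp1, which encodes osteopontin, and 8 further genes that lipid-loaded macrophages are known to express were followed through RNA sequencing of peritoneal cells from diabetic and control mice. The set holds Spp1, Gpnmb, Fabp4, Fabp5, Lgals3, Cd9, Cd63, Lpl and Plin2. Members were taken as the rows of the deposited expression table that carry these names, which gave 9 of 41096 genes. All 9 passed the filter on low values that left 11193 genes for testing. The members were selected on the FPKM of diabetic and control samples as well as on their known biology, with those values in view, Spp1 among them as one of the largest falls, so the differences between groups in these 9 genes, and how many of them pass a threshold, are given as a description and support nothing.

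The mice lacked Apoe (APOE-/-) in both groups. From 8 weeks of age the diabetic group received streptozotocin, which destroys the insulin-producing beta cells, by intraperitoneal injection at 40 mg/kg on 5 days, and the control group received citrate buffer. All mice were then kept on a western diet for 8 weeks and injected with 1.5 mL of 3% thioglycollate, a sterile irritant of the peritoneum that recruits leukocytes. The cavity was rinsed with 10 mL of PBS 3 days later. There were 5 control samples and 4 diabetic samples. The labels name the cells peritoneal macrophages and describe no sorting or adherence step, and they leave unsaid whether a sample is 1 mouse or several pooled; errors and p-values therefore measure only the spread between these samples. No group without the Apoe deletion, the diet or thioglycollate was analysed here. Apoe itself was listed at 231 to 373 FPKM in control and at 135 to 296 FPKM in diabetic samples. FPKM are reads scaled to library size and to the gene length in the deposited table. For the 9 genes that length ran from 1031 to 6503 bases, and for Fabp4 it was 4489 bases, the whole span of the gene with its introns, while for Spp1 it was 1648 of 5933 bases. Levels are therefore compared between samples for each gene, and the order of levels between genes holds only for the FPKM as deposited. Since both groups carry the deletion, and RNA of a disrupted gene can still be counted, Apoe does not check the labels.

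Macrophages that take up large amounts of lipid, in atherosclerotic plaques, fatty tissue and elsewhere, are known to share a set of genes for lipid uptake, storage and lysosomal breakdown. Osteopontin is a secreted phosphoprotein that binds integrins and CD44 and acts on adhesion and migration. Lpl releases fatty acids from lipoproteins, Fabp4 and Fabp5 carry them inside the cell, and Plin2 coats the droplets in which they are stored. Gpnmb is a membrane glycoprotein of late endosomes and lysosomes, Lgals3 is the carbohydrate-binding galectin-3, and Cd9 and Cd63 are tetraspanins of the cell surface and of late endosomes.

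Each library held 14156421 to 16169060 reads in genes, and the 9 genes had between 1368 reads (the lowest Fabp4 value) and 68169 reads (the highest Lgals3 value) per sample, so counting error was small beside the spread between samples. Control 2 and diabetic 3 had the lowest weights when samples were weighted by their fit to the group (0.474 and 0.438, against 0.873 to 2.02 in the others). A gene is said to be called, to rise or to fall where its Benjamini-Hochberg adjusted p over all genes was below 0.05 in limma, a linear model on log2 values. Of 10 macrophage markers tested, 0 were called by limma (1 had an unadjusted p below 0.05, and 0 were called with voom weights, which use the read counts); Cd68, Cd14 and Adgre1 had the highest mean FPKM over all 9 samples, and the summed level ran from 2168 to 2845 FPKM in control and from 1687 to 2860 in diabetic samples. Itgam, another macrophage marker, was listed under 1 FPKM in every sample, and Lyz2 was not analysed here. The 11 T cell markers were all higher in diabetic samples (summed level 141 to 551 FPKM against 44.1 to 75.5), with Thy1, Cd8b1 and Cd3g the highest in mean FPKM over all 9 samples. The summed B cell markers, led by Ighm, Cd79a and Cd79b, lay at 1032 to 2192 FPKM in control and 1560 to 3320 in diabetic samples, and 1 of the 9 was called higher. Other leukocyte markers overlapped between groups: the summed mast cell markers, led by Tpsb2, Cma1 and Cpa3, ran from 283 to 702 FPKM in control and from 112 to 378 in diabetic samples, and the neutrophil markers, led by S100a9, S100a8 and Retnlg, from 91.7 to 1074 and from 102 to 508. The part of the T cell RNA in the differences described below was not tested, but each was also computed relative to the macrophage markers.

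The promoters of Spp1 and Gpnmb are shown first because these genes, both high in lipid-loaded macrophages, followed unlike patterns in these samples. The 250 bases before the start site are given 5′ to 3′ on the strand of the gene, from RefSeq (GRCm38.p6), with matches to the motifs searched in capitals. The Spp1 stretch is chr5:104434861-104435110 on the plus strand, before the first of its 2 listed starts, and the Gpnmb stretch is chr6:49036268-49036517 on the plus strand.
Spp1: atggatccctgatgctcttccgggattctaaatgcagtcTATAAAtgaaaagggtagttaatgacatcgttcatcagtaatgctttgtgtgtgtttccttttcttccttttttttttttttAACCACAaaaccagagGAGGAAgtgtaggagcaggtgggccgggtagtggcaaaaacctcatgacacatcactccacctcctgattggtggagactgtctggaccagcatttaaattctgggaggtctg
Gpnmb: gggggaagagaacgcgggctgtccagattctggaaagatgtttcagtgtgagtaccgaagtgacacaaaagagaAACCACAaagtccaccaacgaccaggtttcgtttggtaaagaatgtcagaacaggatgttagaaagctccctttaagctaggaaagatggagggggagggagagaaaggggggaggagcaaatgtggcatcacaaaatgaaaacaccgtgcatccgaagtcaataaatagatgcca
In the Spp1 stretch the capitals mark TATAAA (the letters of the TATA box motif) at -211, AACCACA (a RUNX site) at -129 and GAGGAA (a PU.1 core) at -113. Each position is that of the first base of the match from the start site. In the Gpnmb stretch they mark AACCACA at -176. The search covered 300 bases (250 before and 50 after the start) on both strands, also for TGANTCA (AP-1), CACGTG (an E-box) and AGGTCA (a nuclear receptor half-site), and found TGACTCA at 9 in Gpnmb. Of 32851 RefSeq promoters of this length, 5.27% held AACCACA, 28.3% GAGGAA, 13.6% TATAAA, 7.81% TGANTCA, 7.15% CACGTG and 16.3% AGGTCA. Promoters were found in this table for 6 of the 9 genes. Plin2 held CACGTG at -4 and TGACCT, the reverse complement of AGGTCA, at -218, Cd63 held GAGGAA at -244 and its reverse complement TTCCTC at -59, and the Cd9 and Lgals3 windows held none of these letters; no matches overlapped. The matches are a description of the letters and say nothing of a factor's binding.

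In Spp1 and Cd9 the values of the groups did not overlap, and in the other 7 genes they did. Log2 fold changes here and below are diabetic minus control, of FPKM + 1. By limma, 2 of the 9 (Spp1 and Cd9) were called lower and 0 higher, beside 4.76% of all genes called in either direction, 2.08% called lower and 2.68% called higher. The same 2 genes had all diabetic values below all control values, as did 4.6% of all genes. Since the members were selected with this contrast known, nothing is read from these shares. Of the 9 log2 fold changes 8 were negative, with a median of -0.49, while 52.3% of all genes tested were negative, with a median of -0.013. Of the 10 macrophage markers tested 9 were negative, with a median of -0.22. Centring on the macrophage markers moved the median of all genes by 0.16, to 0.15, and the 9 genes by the same amount. Leaving out control 2 and diabetic 3 together, chosen after the data were seen, again gave calls for 2 members, with log2 fold changes of -2.22 for Spp1 and -0.49 for Cd9.

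**Figure D1:**
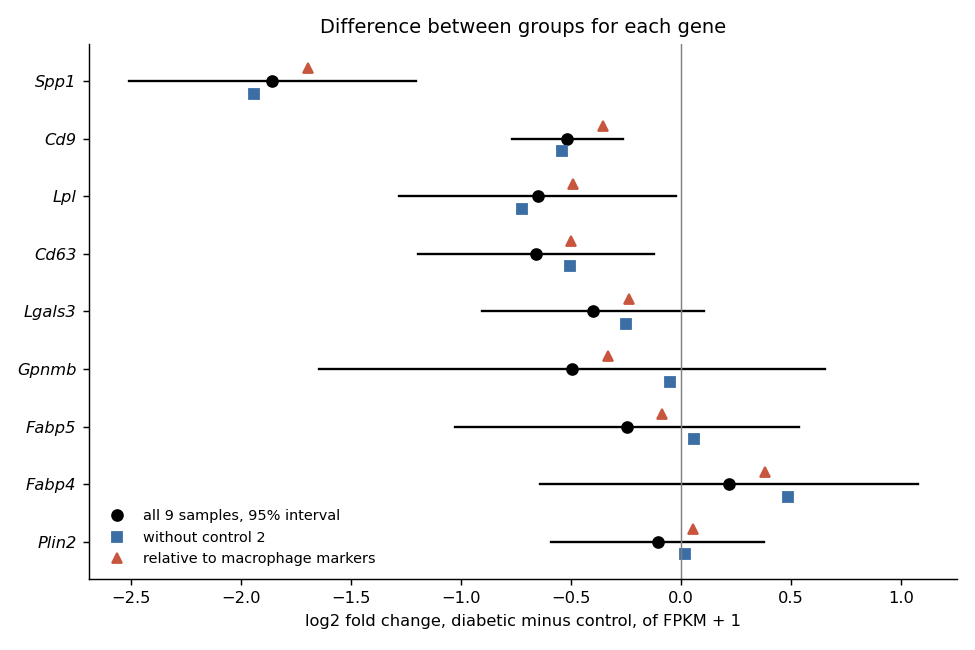
Log2 fold change of FPKM + 1, diabetic minus control (horizontal axis), for each of the 9 genes. Black points and lines are the estimate and 95% interval over all 9 samples, blue squares the estimate without control 2 and red triangles the estimate relative to the macrophage markers; Spp1 lies at -1.86, -1.94 and -1.70, apart from the other 8 genes, and Gpnmb moves from -0.49 to -0.049 without control 2.

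Spp1 was the gene of the set with the widest gap between groups. It lies on chromosome 5 from 110463135 to 110469067 on the plus strand (MGP_C57BL6NJ_G0030245; positions here and below are as the deposited table gives them, in a build that the sources used here do not name and that differs from the RefSeq build above). Its level was 566, 418, 401, 707 and 598 FPKM across control 1 to 5, against 86.3, 122, 261 and 158 FPKM across diabetic 1 to 4. Every diabetic sample lay below every control sample, diabetic 3 being the highest of its group and diabetic 1 the lowest. The mean was 538 ± 129 FPKM over the control samples (SD, n = 5) and 157 ± 75.5 over the diabetic ones (SD, n = 4), which is 29.2% of the control mean. The log2 fold change was -1.86 (SE 0.29, 95% interval -2.51 to -1.20), the 7th from the lowest among all genes tested. Fewer cells that express a gene and less of its RNA per cell cannot be told apart in bulk samples. Relative to the macrophage markers the log2 fold change was -1.70, and it ranged from -2.14 to -1.61 when each sample was left out in turn.

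In the FPKM as deposited, Spp1 had rank 130 of all genes tested by mean control level. Its median was 566 FPKM in control and 140 FPKM in diabetic samples. The control medians of the other members, on the same scale and with the limit of unlike lengths, were 1662 FPKM for Lgals3, 646 for Plin2, 625 for Cd63, 166 for Lpl, 147 for Gpnmb, 141 for Cd9, 91.4 for Fabp5 and 29.0 for Fabp4. The ranges over the control samples overlapped between Plin2, Cd63 and Spp1 and between Lpl, Gpnmb, Cd9 and Fabp5. Spp1 made up 6.78% to 18.7% of the summed FPKM of the 9 genes in control and 2.65% to 7.69% in diabetic samples. The lowest control share was that of control 2, which had the largest sum (6159 FPKM), and the other control samples lay at 10.3% or more.

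**Figure D2:**
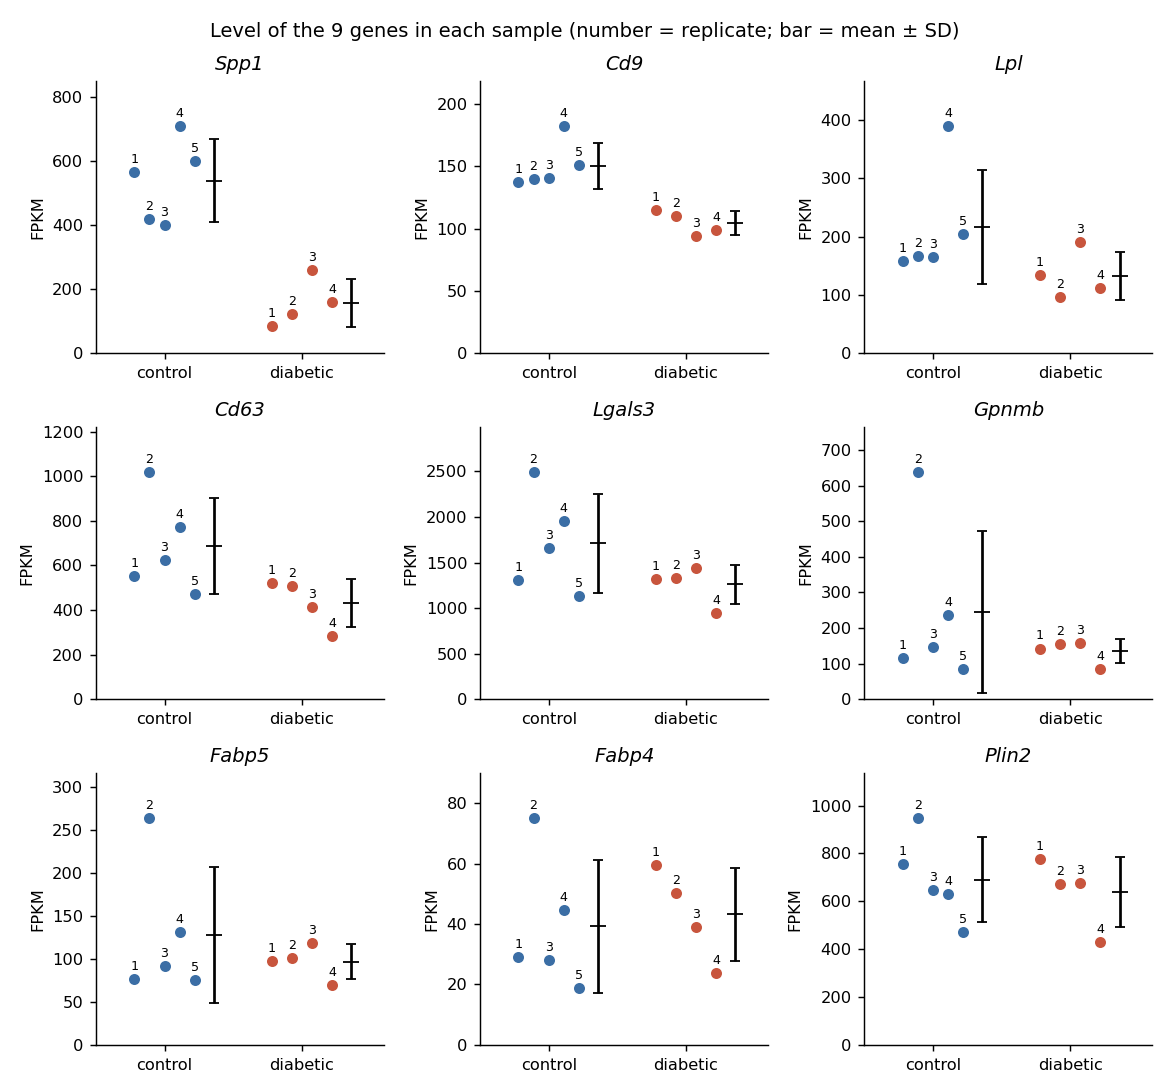
Level of each of the 9 genes in FPKM (vertical axis, from 0, with its own scale per gene) in 5 control samples (blue) and 4 diabetic samples (red). Points are samples with their replicate number, and the black bar is the mean ± SD. The diabetic points of Spp1 (86.3 to 261 FPKM) and Cd9 (94.4 to 115 FPKM) all lie below the control points, while in the other 7 genes the groups overlap.

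The proteins that bind or modify osteopontin were described with a list of 17 genes, of which 13 were tested. Of these 2 fell, 0 rose, and 12 of the 13 log2 fold changes were negative, with a median of -0.24 against -0.013 over all genes tested. Over all genes tested 2.08% were called lower, 2.68% were called higher and 52.3% were negative. The 10 macrophage markers tested had a median of -0.22, with 9 negative, so the shift was not particular to this list. Itgb5, the beta chain of the alpha v beta 5 integrin, a receptor of osteopontin, had 64.7 ± 5.18 FPKM over the control samples (SD, n = 5) and 39.7 ± 8.42 over the diabetic ones (SD, n = 4), a log2 fold change of -0.71 (SE 0.13, adjusted p = 0.018 by limma). Its adjusted p lay between 0.001 and 0.075 over the alternatives, and the call was lost without control 3, diabetic 2 or diabetic 4 and relative to the macrophage markers. Fam20c, the Golgi kinase that phosphorylates secreted proteins including osteopontin, had 36.8 ± 2.29 FPKM over the control samples (SD, n = 5) against 25.6 ± 4.60 over the diabetic ones (SD, n = 4), a log2 fold change of -0.52 (SE 0.12, adjusted p = 0.036 by limma). Its call remained in only 2 of the 9 fits that left out 1 sample, those without diabetic 1 and without diabetic 3, and was lost relative to the macrophage markers, with adjusted p from 0.014 to 0.24 over the alternatives. The receptor Cd44 was at 148 ± 32.7 FPKM over the control samples (SD, n = 5) and 128 ± 23.7 over the diabetic ones (SD, n = 4), with overlapping groups. Itgb3, the partner chain in the alpha v beta 3 receptor, was the single tested gene of the list with a positive log2 fold change (0.61, adjusted p = 0.23 by limma). Cd44 and Itgb3 were named after their values were seen.

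Gpnmb (chromosome 6, 49150118 to 49188236, plus strand) varied most within groups of the 9 genes. It stood at 116, 638, 147, 236 and 84.9 FPKM across control 1 to 5, against 142, 155, 157 and 85.5 FPKM across diabetic 1 to 4. Control 2 was 4.37 times the mean of the other 4 control samples, and all diabetic values lay within the range of those 4. The mean of 244 ± 227 FPKM over the control samples (SD, n = 5) against 135 ± 33.7 over the diabetic ones (SD, n = 4) gave a log2 fold change of -0.49 (SE 0.51, 95% interval -1.64 to 0.66). Without control 2 the control mean was 146 ± 65.1 FPKM (SD, n = 4) and the log2 fold change -0.049. The ratio of Spp1 to Gpnmb was 0.655 in control 2 and 2.73 to 7.04 in the other control samples, against 0.606 to 1.85 in the diabetic samples.

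MITF, TFE3 and TFEB are transcription factors known to drive lysosomal genes and Gpnmb. Of 14 tested genes in a list of these factors and of Gpnmb's partners, 0 were called by limma and 0 with voom weights, with 3 at an unadjusted p below 0.05. The median log2 fold change was -0.19, and 11 of the 14 were negative. Over all genes tested 52.3% were negative, with a median of -0.013. Of the 10 macrophage markers tested 9 were negative, with a median of -0.22, so the shift was not particular to this list. Mcoln1, the lysosomal calcium channel, had 22.2 ± 2.37 FPKM over the control samples (SD, n = 5) and 16.6 ± 1.90 over the diabetic ones (SD, n = 4), a log2 fold change of -0.40 (adjusted p = 0.071 by limma, 0.041 to 0.46 over the alternatives). Tfeb had 14.4 ± 1.68 against 11.0 ± 1.18 FPKM (SD, n = 5 and n = 4), a log2 fold change of -0.35 (adjusted p = 0.088 by limma, 0.069 to 0.62 over the alternatives).

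Among the genes of fatty acid handling, Lpl (chromosome 8, 71612060 to 71641079, plus strand) was at 159, 166, 166, 389 and 204 FPKM across control 1 to 5, against 134, 96.3, 190 and 112 FPKM across diabetic 1 to 4. Diabetic 1, 2 and 4 lay below all control samples, and diabetic 3 lay among them. The means were 217 ± 98.0 FPKM over the control samples (SD, n = 5) and 133 ± 41.1 over the diabetic ones (SD, n = 4). The log2 fold change was -0.65 (SE 0.28, 95% interval -1.28 to -0.024), which was not called over all genes, and it was -0.42 without control 4 and -0.84 without diabetic 3.

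The fatty acid-binding proteins did not separate the groups. Fabp4 (chromosome 3, 7806753 to 7811241, minus strand) had 29.0, 75.1, 28.2, 44.8 and 18.9 FPKM across control 1 to 5, against 59.5, 50.4, 39.0 and 23.9 FPKM across diabetic 1 to 4. It was the single gene of the set with a positive log2 fold change (0.22, SE 0.38, 95% interval -0.64 to 1.08). Fabp5 (chromosome 3, 7598487 to 7606353, plus strand) had 76.2, 264, 91.4, 132 and 75.7 FPKM across control 1 to 5, against 97.4, 101, 119 and 69.9 FPKM across diabetic 1 to 4. Its log2 fold change of -0.25 (SE 0.35, 95% interval -1.03 to 0.53) turned to 0.057 without control 2, whose value was 2.81 times the mean of the other control samples. A processed pseudogene of Fabp5 was listed at 86.8 ± 42.2 FPKM over the control samples (SD, n = 5) and 77.3 ± 20.5 over the diabetic ones (SD, n = 4) and took 6.19% to 8.72% of the reads of both copies, so the counting may have split reads between them. The log2 difference of the summed reads was -0.24, near that of Fabp5 alone.

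Plin2 (chromosome 4, 89706208 to 89739966, minus strand) was close between groups, at 757, 948, 646, 630 and 470 FPKM across control 1 to 5, against 775, 672, 678 and 429 FPKM across diabetic 1 to 4. The means of 690 ± 177 FPKM (SD, n = 5) and 639 ± 148 FPKM (SD, n = 4) gave a log2 fold change of -0.11 (SE 0.22, 95% interval -0.59 to 0.38), which became 0.054 relative to the macrophage markers. Fabp4, Lpl and Plin2 are also adipocyte genes. Of 8 adipocyte markers 7 were under 1 FPKM in every sample, Adipoq and Plin1 among them, and Cfd, Lep, Cidea and Adrb3 were at 0 in all 9 samples. The exception was Lipe, and the sum of the list was 5.19 to 6.41 FPKM in control and 5.13 to 5.82 in diabetic samples.

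Around these genes, a list of 38 genes of fatty acid uptake and lipid droplets had 28 tested members, of which 1 fell and 0 rose. The median log2 fold change was -0.18 and 24 of 28 were negative. Among all genes tested 2.08% were called lower, 2.68% were called higher and 52.3% were negative, with a median of -0.013. For the 10 macrophage markers tested the median was -0.22, with 9 negative, so the shift was not particular to this list. Furin, the protease that cleaves the lipase inhibitors and other secreted proteins, had 19.4 ± 3.41 FPKM over the control samples (SD, n = 5) and 12.1 ± 2.15 over the diabetic ones (SD, n = 4), a log2 fold change of -0.64 (SE 0.15, adjusted p = 0.037 by limma). That call remained without control 2, control 4 or diabetic 3 and was lost without any one of the other 6 samples. It was also lost under the TPM scaling, relative to the macrophage markers and without the filter on low values (adjusted p 0.011 to 0.23 over the alternatives). Cd36, the scavenger receptor that takes up fatty acids and oxidised lipoproteins, had 338 ± 58.0 FPKM over the control samples (SD, n = 5) against 252 ± 43.8 over the diabetic ones (SD, n = 4), a log2 fold change of -0.42 (adjusted p = 0.16 by limma), and was named after its value was seen.

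Lgals3 (chromosome 14, 42855923 to 42874050, plus strand) had rank 37 of all genes tested by mean control FPKM as deposited. It had 1310, 2492, 1662, 1955 and 1127 FPKM across control 1 to 5, against 1320, 1335, 1442 and 944 FPKM across diabetic 1 to 4. The groups overlapped, with a log2 fold change of -0.40 (SE 0.23, 95% interval -0.90 to 0.10) and means of 1709 ± 542 FPKM (SD, n = 5) and 1260 ± 218 FPKM (SD, n = 4). Of 11 tested genes in a list of other galectins and partners of galectin-3, 0 were called by limma or with voom weights, 1 had an unadjusted p below 0.05, and the median log2 fold change was -0.11. Trem2, a lipid receptor reported to bind galectin-3, had 172 ± 40.6 FPKM over the control samples (SD, n = 5) and 113 ± 24.8 over the diabetic ones (SD, n = 4), a log2 fold change of -0.59 (adjusted p = 0.11 by limma, 0.05 to 0.28 over the alternatives). Lgals9 stood on the other side, with 128 ± 37.2 against 165 ± 25.6 FPKM (SD, n = 5 and n = 4), a log2 fold change of 0.39 (adjusted p = 0.24 by limma, 0.034 to 0.43 over the alternatives).

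Both tetraspanins of the set were lower on average in diabetic samples, with unlike spreads. Cd9 (chromosome 6, 132218792 to 132258399, minus strand) had 137, 140, 141, 182 and 151 FPKM across control 1 to 5, against 115, 110, 94.4 and 98.8 FPKM across diabetic 1 to 4, with every diabetic sample below every control sample. Its means were 150 ± 18.6 FPKM (SD, n = 5) and 105 ± 9.48 FPKM (SD, n = 4), and its log2 fold change was -0.52 (SE 0.12, 95% interval -0.77 to -0.26). Its spread within groups was larger than in 25.5% of the genes tested, while the other 8 members stood between 86.6% and 98.8%. As a description of where Cd9 stood beside the threshold, it was no longer called without any one of control 1, 3, 4 and 5 and diabetic 1, 2 and 4, and relative to the macrophage markers, where the log2 fold change was -0.36. Cd63 (chromosome 10, 137182098 to 137185993, plus strand) had 553, 1018, 625, 773 and 472 FPKM across control 1 to 5, against 521, 506, 412 and 284 FPKM across diabetic 1 to 4. Diabetic 3 and 4 lay below all control samples and diabetic 1 and 2 lay above control 5. Its means were 688 ± 215 FPKM (SD, n = 5) and 431 ± 109 FPKM (SD, n = 4), with a log2 fold change of -0.66 (SE 0.24, 95% interval -1.20 to -0.12) that was not called over all genes. A processed pseudogene of Cd63 took 6.83% to 8.54% of the reads of both copies, and the log2 difference of the summed reads was -0.65.

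Of 20 tested tetraspanins and partners, 2 fell and 1 rose, and the median log2 fold change was -0.14. Beside this, 2.08% of all genes tested were called lower and 2.68% higher, with a median of -0.013. The macrophage markers tested had a median of -0.22. Tspan17, which helps bring the protease ADAM10 to the membrane, had 23.9 ± 3.51 FPKM over the control samples (SD, n = 5) and 14.1 ± 3.19 over the diabetic ones (SD, n = 4), a log2 fold change of -0.74 (SE 0.16, adjusted p = 0.028 by limma). Tspan13 had 18.2 ± 3.51 against 30.1 ± 5.65 FPKM (SD, n = 5 and n = 4), a log2 fold change of 0.70 (SE 0.16, adjusted p = 0.037 by limma), with overlapping groups. Timp1, a metalloproteinase inhibitor that binds CD63 at the cell surface, had 41.4 ± 28.0 FPKM over the control samples (SD, n = 5) and 6.63 ± 0.967 over the diabetic ones (SD, n = 4), a log2 fold change of -2.15 (SE 0.50, adjusted p = 0.041 by limma), with control values from 12.2 FPKM in control 2 to 70.4 FPKM. The Timp1 value was known when the list was made. Of the 9 fits without 1 sample, Tspan17 was called in 4 (those without control 2, control 5, diabetic 1 or diabetic 3), Tspan13 in 2 (without control 1 or diabetic 3) and Timp1 in 2 (without control 2 or control 4), and none of these 3 was called relative to the macrophage markers or without the filter on low values. Timp1 was not called with voom weights either.

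Within the groups the 9 genes did not vary as 1 set. Gpnmb, Fabp4, Fabp5, Lgals3, Cd63 and Plin2 were each highest in control 2 among the control samples, lowest in control 5, and lowest in diabetic 4 among the diabetic samples. Spp1, Cd9 and Lpl were highest in control 4 instead. The genes were grouped by these same values, so high r among the 6 follows in part from the grouping. Leaving out control 2 does not remove this, since the 6 genes also share their lowest samples. With each gene's group mean taken off, the 15 pairs among the first 6 genes had Pearson's r of 0.69 to 0.98 over the 9 samples (median 0.90). Gpnmb and Fabp5 reached 0.98, as did Fabp4 and Cd63. Spp1 had r between -0.39 and -0.089 with these 6 genes, 0.61 with Lpl and -0.14 with Cd9. Cd9 and Lpl had r of 0.52. Without control 4, r was 0.59 for Spp1 with Lpl, -0.72 for Spp1 with Cd9 and -0.31 for Cd9 with Lpl. Without control 2 the 15 pairs lay between 0.49 and 0.98 (median 0.83), and Spp1 with the 6 genes between -0.29 and 0.28. The 18 pairs of the 6 genes with Spp1, Cd9 or Lpl had a median r of 0.066 over the 9 samples. Without control 2 that median was 0.35, with r from -0.29 to 0.76, so the distance of Cd9 and Lpl from the 6 genes depended on control 2. These values are a description with no p: the genes of a library share its cell makeup and scaling, and 9 samples in 2 groups leave few degrees of freedom.

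**Figure D3:**
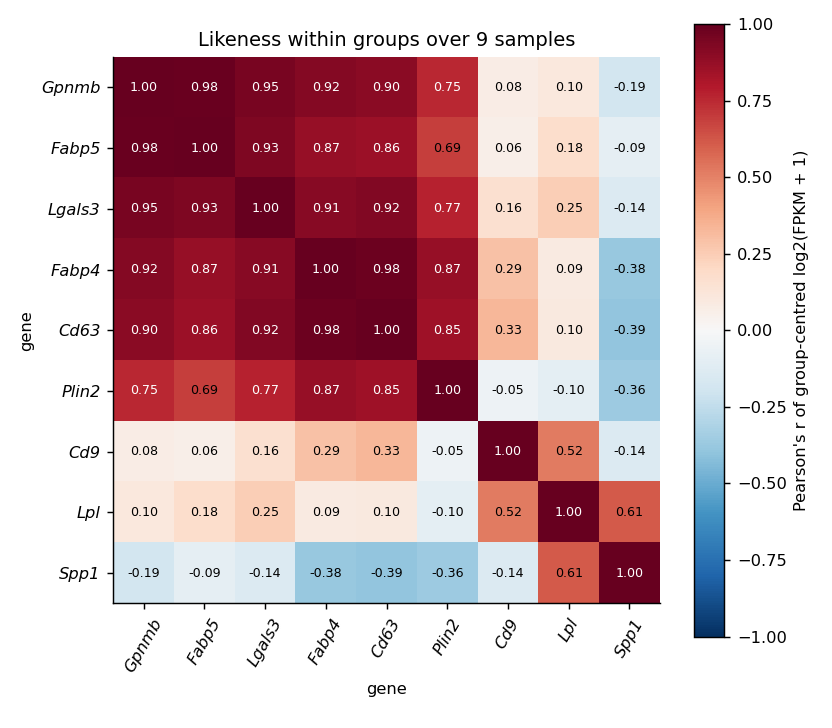
Pearson's r between each pair of the 9 genes over 9 samples, on log2(FPKM + 1) with the group means taken off; colour runs from blue (-1) to red (1) and the number in each square is r. The block of 6 genes at the upper left, grouped by the same values, holds r of 0.69 to 0.98. The Spp1 row is below 0 against those genes and 0.61 against Lpl.

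Other macrophage genes were often at their extremes in the same samples. Control 2 was the highest control sample in 21 of 34 other lipid-associated macrophage genes (61.8%) and in 34.1% of all genes tested. Diabetic 4 was the lowest diabetic sample in 23 of those 34 genes and in 25.6% of all genes tested. Control 2 also had the highest control sum of macrophage markers (2845 FPKM, against 2168 to 2524 in the others) and the lowest sum of B cell markers (1032 FPKM, against 1288 to 2192), and diabetic 4 was the lowest diabetic sample in 8 of the 10 macrophage markers. The part of these shifts in the 6 genes was not tested. Control 2 was 1.52 to 4.37 times the mean of the other control samples in the 6 genes, with Plin2 the lowest ratio and Gpnmb the highest.

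By the same measure, the tested protein-coding genes, members included, were ranked by likeness within groups. Gm, Rik and unnamed genes, antigen receptor segments and repeated names were left out. The genes most like Spp1 were Tmem209, Kat2b and Fam63b (r = 0.97, 0.96 and 0.96 over 9 samples). Those most like Gpnmb were Tor2a (r = 0.99), the member Fabp5 (r = 0.98) and Polr2f (r = 0.98), and those most like Lgals3 were Wfs1, Vamp8 and Iah1 (r = 0.99, 0.99 and 0.99). Cd9 had weaker likenesses, with Mapk1ip1 at 0.94. Ranking so many genes over 9 samples yields high r for some gene in any case, so these names are a description of the libraries.

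The remaining genes known from lipid-associated macrophages, for lipid sensing, efflux and lysosomal breakdown, were mostly a little lower in diabetic samples and were not called one by one. Of 34 tested, 0 were called by limma, 1 was called with voom weights and 11 had an unadjusted p below 0.05. The median log2 fold change was -0.26 and 30 of 34 were negative. The 10 macrophage markers tested were close to this, with a median of -0.22 and 9 negative, so the shift was not particular to the list. Vat1 had 306 ± 45.4 FPKM over the control samples (SD, n = 5) and 204 ± 39.9 over the diabetic ones (SD, n = 4), a log2 fold change of -0.59 (adjusted p = 0.057 by limma, 0.027 to 0.16 over the alternatives). Nr1h3, the liver X receptor alpha that senses oxysterols, had 41.2 ± 10.2 against 26.7 ± 5.42 FPKM (SD, n = 5 and n = 4), a log2 fold change of -0.59 (adjusted p = 0.085 by limma, 0.029 to 0.24 over the alternatives). The summed level of the list ran from 14774 to 23884 FPKM in control and from 10802 to 17780 in diabetic samples. The list holds Cd68, which is also a macrophage marker.

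**Figure D4:**
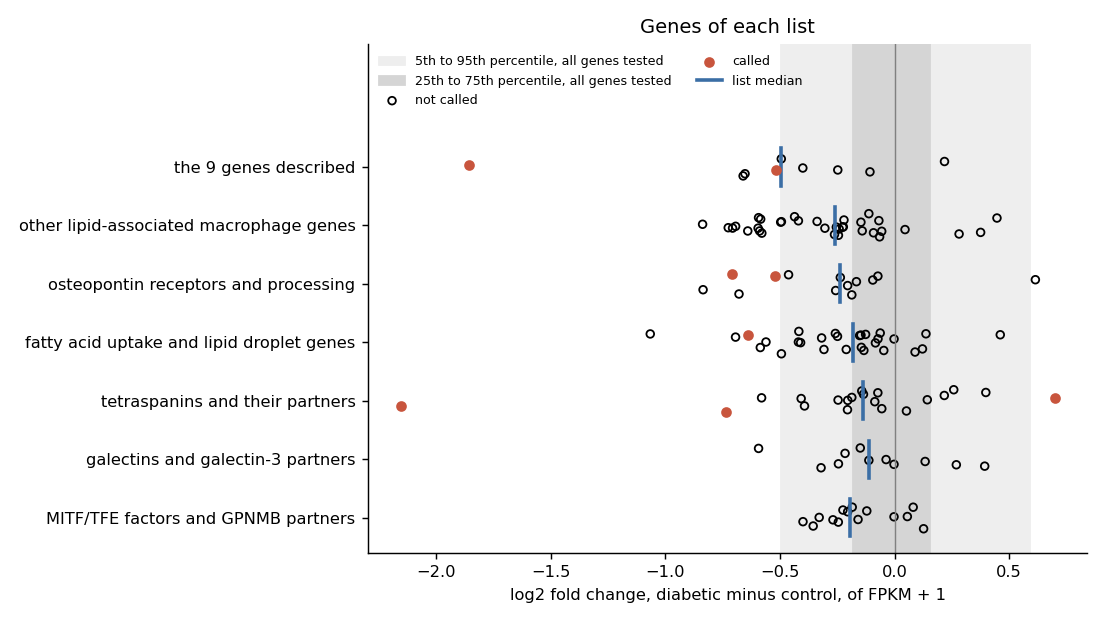
Log2 fold change of FPKM + 1, diabetic minus control (horizontal axis), of each tested gene in the set and in 6 lists (rows). Red points are called genes, open circles genes that were not called, blue bars the list medians (from -0.49 for the 9 genes to -0.11 for the galectins) and grey bands the 25th to 75th and the 5th to 95th percentile of all genes tested (-0.18 to 0.16 and -0.49 to 0.59).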

How the data were processed

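RNA sequencing of 9 samples was analysed from 1 table in which the authors deposited FPKM for 41096 genes, with gene length, position and biotype, per the file headers. Libraries were made with a SMARTER mRNA kit, per the labels' protocols; GRCm38 and mm10 are named, per the submitters' processing notes. No source used here gives the aligner, the counter or the use of strand. All columns of sample values were matched to samples by title. Every FPKM times gene length was a whole multiple of the value of 1 read (100% of values within 0.05), which gave between 14156421 and 16169060 reads in genes for each sample. The divisors match median-of-ratios size factors, multiplied by the mean total, within 1.7e-09 percent, so the deposited FPKM are scaled between samples. Whether duplicates made by PCR were removed before counting cannot be told from these values.

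log2(FPKM + 1) was modelled in limma 3.58.1 (R 4.3.3; lmFit, eBayes with trend and robust moderation; two-sided; group as the only factor) for genes that reached FPKM 1 in 4 or more samples. "Called" means a Benjamini-Hochberg adjusted p below 0.05 over all 11193 genes. Fold changes on this scale understate those of low genes. The fit was tested on simulated data. Genes named are the 9 members, up to 4 called genes per list in order of p, or the 2 of smallest p where none was called, the 3 genes most like a member, and the 3 markers of a cell type with the highest mean FPKM over all samples. The members, lists and tests were chosen with earlier results of these data known. All rows of 52 repeated gene names were kept, each labelled with its gene identifier. A listed gene with such a name was therefore not matched to its list. Overlapping genes were at most 1.35 FPKM at Cd9 and 0.36 FPKM at Spp1; strand use in counting is unknown. Marker lists not described in the report (resident macrophage, monocyte, dendritic, natural killer, eosinophil, mesothelial, fibroblast, endothelial, erythroid and platelet) are given in the closing observations. Alternatives were other pseudocounts, filters, scalings, sample weights, plain moderation, voom on the recovered reads, a replicate block and leaving out samples.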

Additional observations from a re-analysis of the deposited data

Results flagged for a closer look

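In control 2, Gpnmb stood at 638 FPKM, apart from the other 4 control samples, the nearest of which was at 236 FPKM (the gap was 0.727 of the group's range, against a limit of 0.71 for 5 samples). In control 4, Lpl stood at 389 FPKM with the nearest control sample at 204 FPKM (0.804 of the range). The check was made on the 9 genes in each of the 2 groups, 18 sets of values in all, and about 1 in 20 such sets passes the limit by chance.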

How the results depend on the processing

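Over all genes, 533 were called in the main analysis. The count was 183 without the filter on low values, 205 relative to the macrophage markers, 1304 with array weights and 146 (without diabetic 4) to 1170 (without diabetic 3) when 1 sample was left out; it was 1180 without control 2 and diabetic 3 together, an alternative chosen after seeing the data. The share of calls that were higher was 56.3%, against 45.7% after scaling to TPM and 89.8% relative to the macrophage markers. Of the 9 genes, 2 were called, against 1 without the filter and 1 relative to the macrophage markers (Spp1 in both cases), and 1 to 2 when 1 sample was left out. Of 113 tested genes in the other lists 6 were called, against 1 without the filter, 0 relative to the macrophage markers by limma (24 at an unadjusted p below 0.05), 16 with array weights, 15 without control 2 and diabetic 3, and 0 to 16 when 1 sample was left out, the 0 being without control 3, diabetic 2 or diabetic 4 (30, 21 and 22 at an unadjusted p below 0.05). Fabp5 turned to 0.057 without control 2 (-0.39 to 0.057 over the samples left out). Plin2 turned to 0.054 relative to the macrophage markers, to 0.011 with array weights and to 0.017 and 0.073 without control 2 and diabetic 4 (-0.24 to 0.073). The cause of these changes was not tested.

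Replicate numbers 1 to 4 occur in both groups, but same-numbered samples did not vary together (r of the deviations from the group means 0.023, 0.16, -0.26 and -0.18). These values cannot tell whether the number marks a shared batch or pairing. With the replicate block, which drops control 5, 62 genes were called, 0 of the 9 genes by limma (4 at an unadjusted p below 0.05, as in the main analysis) and 0 of the other listed genes (28 at an unadjusted p below 0.05); the log2 fold change of Spp1 was -1.81. With 4 and 5 samples per group and 1368 or more reads per member and sample, the spread between samples and not depth limited these values.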

Other observations

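Other cell types that an exudate can hold are given here as values. Of 9 markers tested for large resident peritoneal macrophages, 0 were called by limma or with voom weights (5 at an unadjusted p below 0.05). Of these 7 had a positive log2 fold change and 2 (Rarb and Fn1) a negative one. The summed level, most of it Cd5l and Fn1, was 1240 to 1608 FPKM in control and 1153 to 1562 in diabetic samples. Prg4 ran from 10.4 to 27.4 FPKM in control and from 29.0 to 75.1 in diabetic samples. Alox15 ran from 13.5 to 33.0 and from 34.0 to 110 FPKM. These 4 genes were named after their values were seen. The monocyte markers summed to 416 to 555 FPKM in control and 441 to 623 in diabetic samples, with 1 of 7 called higher. The dendritic cell markers summed to 82.6 to 131 FPKM in control and 125 to 229 in diabetic samples, with 1 called higher and 1 lower of 4. The natural killer cell markers summed to 41.6 to 85.2 FPKM in control and 84.5 to 116 in diabetic samples, with 2 of 7 called higher. The eosinophil markers summed to 14.7 to 51.6 FPKM in control and 8.41 to 17.8 in diabetic samples, and 0 of 3 were called by limma or with voom weights (2 at an unadjusted p below 0.05). The mesothelial markers summed to 11.1 to 27.1 FPKM in control and 20.4 to 31.3 in diabetic samples, and the fibroblast markers to 12.0 to 33.8 and 14.6 to 36.6 FPKM. The endothelial markers summed to 6.57 to 9.97 FPKM in control and 11.3 to 20.2 in diabetic samples, of which 1 was tested and called higher, Pecam1, which leukocytes also express, and 5 of 8 were under 1 FPKM in every sample. The platelet markers summed to 476 to 755 FPKM in control and 358 to 827 in diabetic samples, nearly all of it Pf4, which macrophages also express. Of the 3 platelet markers tested 1 was called lower, and all 3 log2 fold changes were negative, with a median of -0.97. The erythroid markers ran from 6.37 to 158 FPKM in control and from 0.917 to 41.4 in diabetic samples.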
